A study of Mus musculus with 22 samples.

Results

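Mouse tumour cells with Nfatc1 knocked out by CRISPR/Cas9 were compared with cells of the control line at day 8, in EPCAM+ and EPCAM- cells together. The comparison was defined by the labels. It took the 4 Nfatc1KO day 8 libraries (EPCAM+ and EPCAM-, numbers 1 and 2) against the 4 Control day 8 libraries matched by fraction and number, 8 of the 22 RNA-seq libraries in the series. The Nfatc1KO group and the Control group both came from primary cell lines of a Lgr5CreER, p53fl/fl and Rosa26-YFP+/+ tumour, so both sides share the tumour background, and their labels differ in the knockout. Living mCherry+ YFP+ cells were sorted by surface EPCAM, and no treatment other than the knockout is named. A second comparison used no control library and set the 4 Nfatc1KO libraries against the 12 day 8 libraries of the Pitx1KO, Klf5KO and Creb3l1KO lines, which carry the same background. The labels give the number as a batch. They name neither the culture nor the clone behind a library, so p-values measure only the spread between these libraries.

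NFATc1 is a transcription factor of the nuclear factor of activated T cells family. Calcium entry activates the phosphatase calcineurin, which removes phosphates from NFAT proteins and lets them enter the nucleus, where they often bind DNA together with AP-1 proteins at sites built on the core GGAAA. Kinases such as DYRK1A, GSK3 and casein kinase 1 send NFAT back to the cytoplasm. In skin NFATc1 marks stem cells of the hair follicle bulge and holds them in quiescence, and the protein also directs osteoclast and heart valve development.

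The table held 49671 genes as normalised read counts on a common total, and 19569 genes that reached 10 units in 2 or more libraries were tested. The 8 libraries held 6054933 to 8722944 reads in genes, and 1 read was worth 2.29 to 3.30 units. Values below about 10 therefore rest on a few reads. Epcam, which encodes the sorted surface protein, followed the sort, at 5166 and 7317 in Nfatc1KO EPCAM+ cells and 203 and 682 in Nfatc1KO EPCAM- cells, against 6153 and 5633 in Control EPCAM+ cells and 180 and 441 in Control EPCAM- cells. Epcam itself did not pass between the lines (log2 fold change 0.23, standard error 0.32, adjusted p 0.763). Of 12 leukocyte markers Cd3e and Tyrobp were at 0 in all 8 libraries, and the summed level of the list was 340 to 428 in Nfatc1KO and 256 to 348 in Control. Of 9 endothelial markers Tek, Erg and Cldn5 were at 0, with sums of 91 to 232 in Nfatc1KO and 96 to 204 in Control. All 9 fibroblast markers, which mesenchymal tumour cells also express, were detected, with sums of 345 to 3994 in Nfatc1KO and 676 to 2291 in Control.

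Nfatc1 mRNA (chromosome 18, 80606205 to 80713071, minus strand, GRCm38) stood at 194 and 182 in Nfatc1KO EPCAM+ cells and at 249 and 189 in Nfatc1KO EPCAM- cells. Control EPCAM+ cells had 817 and 488, and Control EPCAM- cells 981 and 542. Every knockout library lay below every control library, and also below the 545 to 944 of the 12 libraries of the other knockout lines. The gene fell 3.47-fold by group means (log2 fold change -1.74, standard error 0.13, adjusted p 3.17e-06). The fall was -1.74 in EPCAM+ cells (adjusted p 0.00065) and -1.74 in EPCAM- cells (adjusted p 0.000644). Within single fractions the call was lost without the number as a block (adjusted p 0.315 in EPCAM+ and 0.29 in EPCAM- cells) and in a fit of the compared groups alone (0.938 and 0.949). In EPCAM- cells it was also lost without Control number 1 (0.0614). Against the other knockout lines it was -1.82 (adjusted p 5.78e-08). The ratio of the group means was 0.288. An edit need not remove the message, so this value is a check of the label and not of the protein. All folds on the log2 scale are of value + 1, which understates changes of genes at low values.

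Over all genes, 186 of 19569 passed at an adjusted p below 0.05 (0.950%), with 120 higher (0.613%) and 66 lower (0.337%) in Nfatc1KO. The median size of their log2 fold change was 0.75 among the rises and 0.85 among the falls. All 4 matched pairs moved in the direction of the call for 119 of the 120 rises and 64 of the 66 falls. The groups did not overlap in either fraction for 107 and 54. These counts largely follow from calling the genes in the same libraries, and shares over all genes were not computed. The count of 186 treats the fractions of a line as separate samples. They were not independent: the difference between numbers 1 and 2 was correlated across 12588 genes at 0.716 between the fractions of Nfatc1KO and at 0.695 between those of Control. With line and number as a random effect 4 genes passed, with the fractions averaged 1 gene passed, and without the number as a block 9 passed. Single libraries also moved the count, which lay between 6 without Nfatc1KO EPCAM- number 2 and 352 without Control EPCAM+ number 2. It was 11 without Nfatc1KO EPCAM+ number 1, 52 without Nfatc1KO EPCAM- number 1 and 280 without Nfatc1KO EPCAM+ number 2. It was 43 without Control EPCAM+ number 1 and 13 without Control EPCAM- number 1. Below, rose and fell mean the first of these fits, and the genes that also passed with the random effect are named as such.

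**Figure D1:**
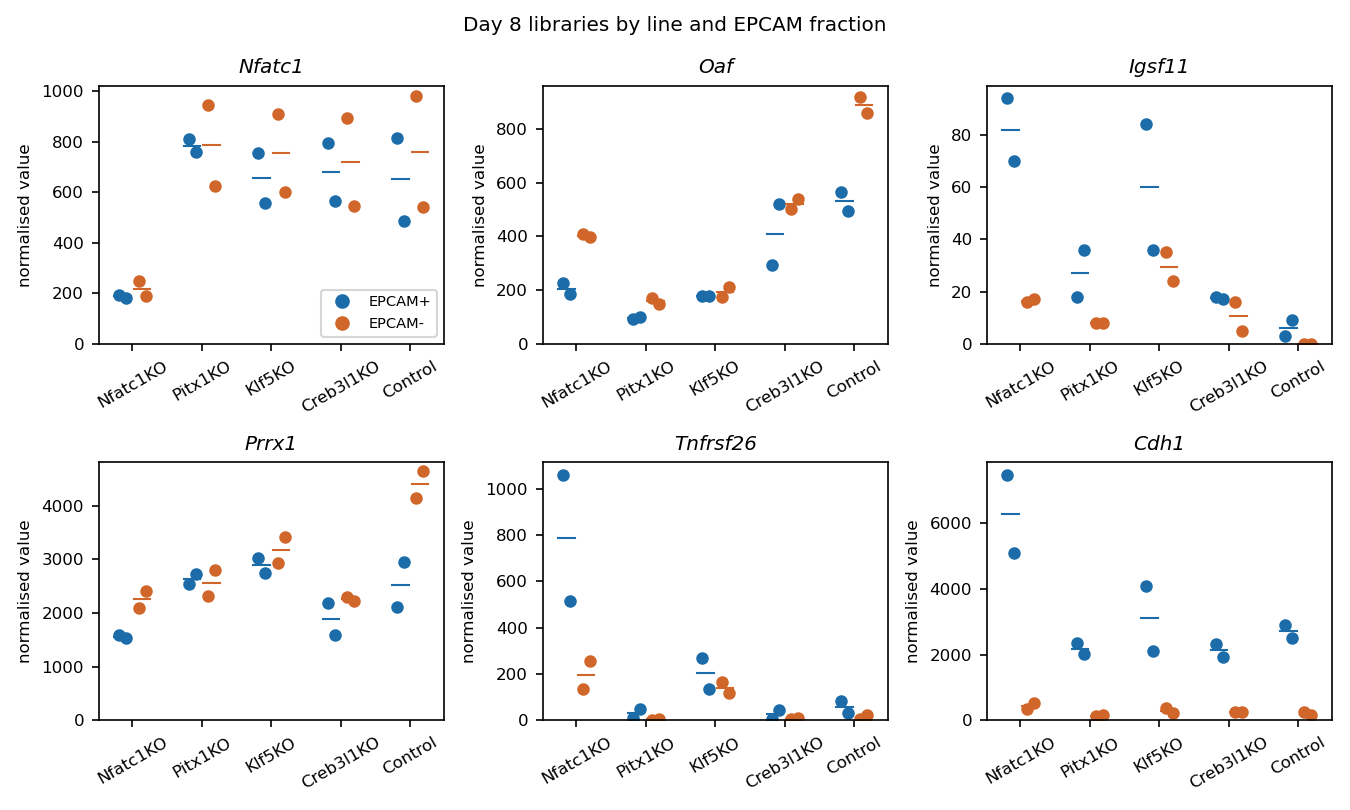
Normalised values (y axis, linear) of 6 genes in the 20 day 8 libraries, by line on the x axis with Nfatc1KO at the left and Control at the right; points are single libraries, number 1 left of number 2, and bars are means of 2 libraries. Nfatc1 is low in Nfatc1KO alone (182 to 249), whereas Oaf is high in Control (496 to 918) and low in Pitx1KO and Klf5KO as well.

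The 4 genes that passed with the random effect were Nfatc1, Igsf11, Oaf and 4930563E18Rik, and the same 4 passed with each of the 8 libraries left out in turn. Apart from Nfatc1 they were chosen after their values were seen. Igsf11, an immunoglobulin-family adhesion molecule, had 94 and 70 in Nfatc1KO EPCAM+ cells and 16 and 17 in Nfatc1KO EPCAM- cells, against 3 and 9 in Control EPCAM+ cells and 0 and 0 in Control EPCAM- cells. The groups did not overlap in either fraction (log2 fold change 3.91, standard error 0.49, adjusted p 0.00185, and 0.0208 with the random effect). The control values rest on a few reads. The other knockout lines had 5 to 84, and against them Igsf11 did not pass (log2 fold change 0.88, adjusted p 0.331).

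Oaf had 225 and 185 in Nfatc1KO EPCAM+ cells and 407 and 397 in Nfatc1KO EPCAM- cells, against 564 and 496 in Control EPCAM+ cells and 918 and 860 in Control EPCAM- cells. It was lower in EPCAM+ than in EPCAM- libraries of both lines and lower in Nfatc1KO within each fraction (log2 fold change -1.26, standard error 0.16, adjusted p 0.00185, and 0.0208 with the random effect). The Pitx1KO libraries had 93 to 169, the Klf5KO libraries 176 to 212 and the Creb3l1KO libraries 294 to 540, so Control was the highest line and Nfatc1KO lay among the other knockouts (log2 fold change against them 0.39, adjusted p 0.179). The unannotated transcript 4930563E18Rik had 108 and 63 in EPCAM+ and 41 and 39 in EPCAM- cells of Nfatc1KO, and 3, 0, 3 and 0 in the Control libraries (log2 fold change 4.87, standard error 0.60, adjusted p 0.00185, and 0.0208 with the random effect). The Control values are single reads or none, so the size of the fold depends on the added constant. The transcript was at 0 in all Pitx1KO and Creb3l1KO libraries and at 27 to 92 in Klf5KO.

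Prrx1, a homeobox transcription factor of mesenchyme that can drive epithelial to mesenchymal transition, was the 1 further gene that passed with every single library left out. It had 1589 and 1536 in Nfatc1KO EPCAM+ cells and 2098 and 2418 in Nfatc1KO EPCAM- cells, against 2109 and 2943 in Control EPCAM+ cells and 4150 and 4650 in Control EPCAM- cells. All 4 pairs fell (log2 fold change -0.82, standard error 0.12, adjusted p 0.00978), with an adjusted p of 0.0593 with the random effect. Against the mean of the other knockout lines, which had 1593 to 3408, it was lower too (log2 fold change -0.43, adjusted p 0.0416). That call was lost with the random effect (0.153). In EPCAM- cells Nfatc1KO overlapped Creb3l1KO (2301 and 2219) and Pitx1KO (2327 in number 1).

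The promoter windows of Prrx1, Igsf11, Oaf and of Hoxa9, a further gene that fell, are shown because these are the called genes on which the comparison turned or that belong to a gene family described below. Each runs 250 bases before to 50 after a RefSeq start on GRCm38.p6, 5′ to 3′ along the gene, and capitals mark the NFAT core GGAAA or its reverse complement TTTCC.
Prrx1 (chr1:163313601-163313900, minus strand): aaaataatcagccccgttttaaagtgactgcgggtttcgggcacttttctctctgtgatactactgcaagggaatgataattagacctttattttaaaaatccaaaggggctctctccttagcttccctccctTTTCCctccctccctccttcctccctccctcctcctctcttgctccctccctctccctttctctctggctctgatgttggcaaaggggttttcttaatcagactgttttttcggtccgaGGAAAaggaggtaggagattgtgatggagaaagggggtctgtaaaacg
Hoxa9 (chr6:52227321-52227620, minus strand): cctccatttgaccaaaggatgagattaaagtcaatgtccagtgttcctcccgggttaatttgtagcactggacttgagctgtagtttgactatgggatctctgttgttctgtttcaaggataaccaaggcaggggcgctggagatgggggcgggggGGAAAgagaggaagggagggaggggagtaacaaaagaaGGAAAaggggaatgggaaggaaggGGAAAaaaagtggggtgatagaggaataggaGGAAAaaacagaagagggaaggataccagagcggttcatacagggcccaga
Igsf11 (chr16:38902095-38902394, plus strand): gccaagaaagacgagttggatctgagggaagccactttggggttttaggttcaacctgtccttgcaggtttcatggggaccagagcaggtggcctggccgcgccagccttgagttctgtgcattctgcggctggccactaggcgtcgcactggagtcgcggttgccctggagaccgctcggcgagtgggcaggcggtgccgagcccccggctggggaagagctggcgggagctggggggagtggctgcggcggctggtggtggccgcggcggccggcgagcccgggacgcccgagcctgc
Oaf (chr9:43239767-43240066, minus strand): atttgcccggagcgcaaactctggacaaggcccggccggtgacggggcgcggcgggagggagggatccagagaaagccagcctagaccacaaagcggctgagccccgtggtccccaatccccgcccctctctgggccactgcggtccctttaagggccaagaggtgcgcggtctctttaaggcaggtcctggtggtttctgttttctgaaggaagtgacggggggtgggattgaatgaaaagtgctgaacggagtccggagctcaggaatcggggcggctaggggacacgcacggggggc
The core occurs 4 times on the printed strand of Hoxa9 and once on each strand of Prrx1, and these letters are not in the windows of Igsf11 and Oaf. The core on either strand is in 61.3% of the 32851 promoter windows in the table and in 58.8% of the 13940 windows of genes tested. It is in 57 of 103 windows of genes that rose (55.3%) and in 31 of 56 windows of genes that fell (55.4%). A match is only a string of letters and was not tested as a binding site.

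Among genes of the epithelial and mesenchymal states, 2 of 28 tested junction genes rose and 1 fell, with a median log2 fold change of 0.36 against -0.00392 for all genes tested. The lists of 14 epithelial regulators and 11 genes of squamous differentiation had no call and medians of -0.06 and -0.99, with 8 members below 0 in each. These medians differed by number. In EPCAM+ and EPCAM- pairs the squamous median was -2.46 and -1.56 in number 1, and 0.40 and 0.08 in number 2. That of the regulators was -0.46 and -0.35 in number 1, and 0.24 and 0.16 in number 2. Cdh1, which encodes E-cadherin, had 7473 and 5074 in Nfatc1KO EPCAM+ cells and 348 and 523 in Nfatc1KO EPCAM- cells, against 2903 and 2512 in Control EPCAM+ cells and 251 and 156 in Control EPCAM- cells. It rose in all 4 pairs (log2 fold change 1.15, standard error 0.21, adjusted p 0.0205, and 0.107 with the random effect). In bulk RNA of a sorted fraction, more cells that express a gene and more of its RNA per cell cannot be told apart. The other knockout lines had at most 4076 in EPCAM+ cells and at most 369 in EPCAM- cells, where they overlapped Nfatc1KO. Against them Cdh1 also rose, including with the random effect (log2 fold change 1.18, adjusted p 0.00239 and 0.0189). Cldn6, a tight junction claudin, rose by 0.82 (adjusted p 0.0362). Another claudin, Cldn3, fell, at 10, 4, 18 and 9 in Nfatc1KO against 58, 331, 69 and 292 in Control (log2 fold change -3.81, adjusted p 0.0201). The other knockout lines had 0 to 16, so Control alone was high. Krt7, a keratin of simple epithelia, had 14996, 6920, 4290 and 3955 in Nfatc1KO against 3955, 1860, 476 and 377 in Control, in the order EPCAM+ numbers 1 and 2, then EPCAM- numbers 1 and 2. It rose in all 4 pairs (log2 fold change 2.59, standard error 0.49, adjusted p 0.0393, and 0.116 with the random effect). Against the mean of the other lines it passed too (3.13, adjusted p 0.00438 and 0.0124). Its values were not separated from all of their libraries within both fractions. The other listed keratins of simple epithelia, Krt8, Krt18 and Krt19, did not pass against Control (log2 fold changes 0.07, 0.18 and 0.49). By pair the median of that list was -0.22 and 0.61 in EPCAM+ numbers 1 and 2, and 0.04 and 1.01 in EPCAM- numbers 1 and 2.

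On the mesenchymal side, 1 of 14 transcription factors of the epithelial to mesenchymal transition was called, Prrx1. In this list 11 were below 0 and the median was -0.29. By pair the median was 0.37 and -0.43 in EPCAM+ numbers 1 and 2, and -0.28 and -0.395 in EPCAM- numbers 1 and 2. Zeb1, Snai1 and Twist1, which encode repressors of epithelial genes, had log2 fold changes of -0.32, -0.16 and -0.48 and did not pass (adjusted p 0.647, 0.78 and 0.264). Of 28 extracellular matrix genes 2 fell, with a median of -0.25. Vcan, the proteoglycan versican, had 3803 and 4014 in Nfatc1KO EPCAM+ cells and 9775 and 7185 in Nfatc1KO EPCAM- cells, against 8196 and 6042 in Control EPCAM+ cells and 17509 and 10907 in Control EPCAM- cells (log2 fold change -0.79, standard error 0.14, adjusted p 0.019). Postn, which encodes the matrix protein periostin, had 3, 0, 44 and 22 in Nfatc1KO against 40, 3, 337 and 33 in Control (log2 fold change -2.21, adjusted p 0.044). Ltbp1, which holds latent TGF-beta in the matrix, fell by 0.61 (adjusted p 0.0248) as the 1 called member of 24 in its pathway list. Among 23 genes of mesenchymal cytoskeleton and adhesion only the cadherin Cdh11 fell, while 18 of the 23 were above 0 and the median was 0.33. Cdh11 had 0, 0, 47 and 9 in Nfatc1KO against 47, 41, 357 and 340 in Control (log2 fold change -4.74, adjusted p 0.0202), and 0 to 20 in the other knockout lines. None of these matrix and adhesion calls passed with the random effect (adjusted p 0.0744 to 0.162). Against the other knockout lines none of the 28 extracellular matrix genes passed. Of the 24 TGF-beta pathway genes 2 rose against those lines and none fell. The list medians differed by number. The junction median was -0.08 and 0.13 in the EPCAM+ and EPCAM- pairs of number 1, and 0.46 and 0.62 in those of number 2. The median of mesenchymal cytoskeleton and adhesion was 0.93 and 0.61 in number 1, and -0.20 and -0.19 in number 2.

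**Figure D2:**
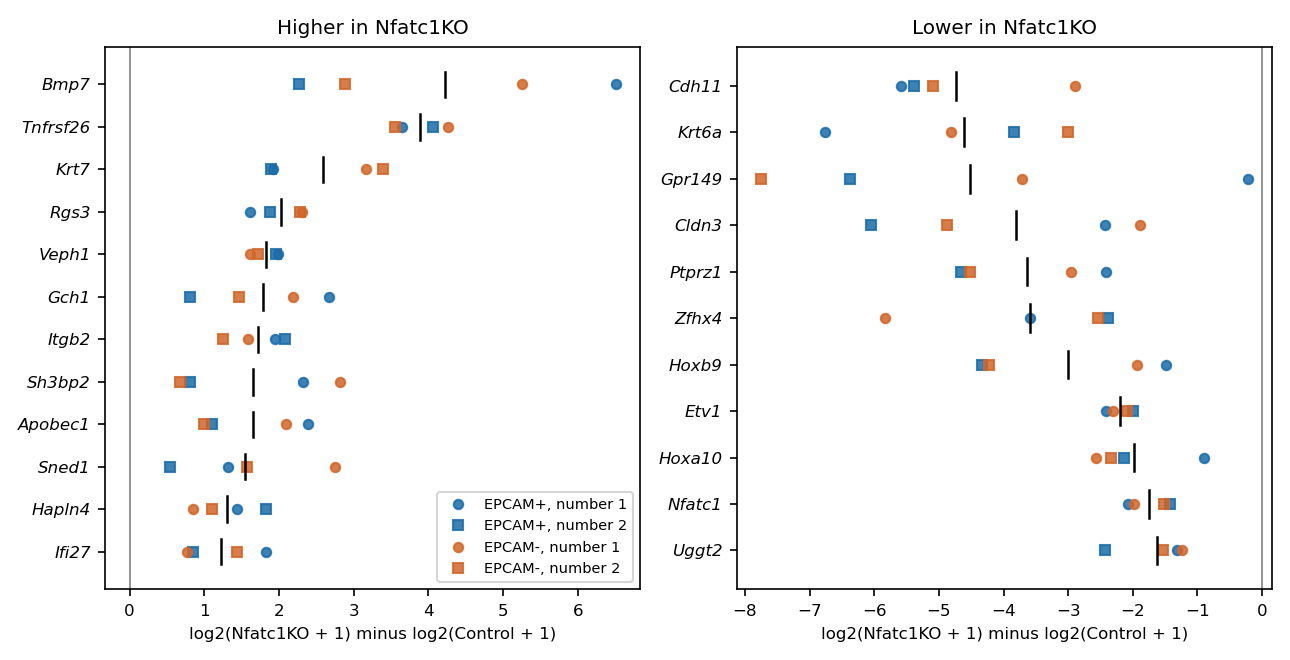
Log2 differences, Nfatc1KO minus Control, of 12 named rises and 11 named falls (y axis, by size) in each matched pair; circles are number 1, squares number 2, and black bars the fitted log2 fold change. All points lie on the side of the call because the naming rule required groups that did not overlap within a fraction. For Cldn3 and Hoxb9 the number 2 pairs lie farther from 0 than the number 1 pairs.

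Of the rises, Bmp7, a secreted ligand of the TGF-beta superfamily, was the largest among those named by rule. It had 364, 162, 151 and 162 in Nfatc1KO against 3, 33, 3 and 21 in Control (log2 fold change 4.23, standard error 0.79, adjusted p 0.0248, and 0.0744 with the random effect). The Klf5KO libraries had 90 to 153 and the Pitx1KO and Creb3l1KO libraries 0 to 26, so Nfatc1KO was the highest line. Tnfrsf26, a tumour necrosis factor receptor family member, had 1060, 516, 134 and 258 in Nfatc1KO against 84, 30, 6 and 21 in Control (log2 fold change 3.88, standard error 0.56, adjusted p 0.0136). For Tnfrsf26 the Klf5KO libraries had 116 to 271 and overlapped Nfatc1KO in EPCAM- cells, and the Pitx1KO and Creb3l1KO libraries had 3 to 50. Against the mean of the other knockout lines Bmp7 passed, also with the random effect (3.97, adjusted p 0.00741 and 0.014). Tnfrsf26 did so too (3.63, adjusted p 0.00114 and 0.0116).

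The other named rises were smaller. They ran from 2.02 for Rgs3, a brake on G protein signalling, through 1.78 for Gch1, which makes the cofactor tetrahydrobiopterin, and 1.65 for the cytidine deaminase Apobec1, to 1.22 for the interferon-induced gene Ifi27. Veph1, Itgb2, Sh3bp2, Sned1 and Hapln4 lay between 1.30 and 1.82. Itgb2 encodes a leukocyte integrin chain and had 84, 96, 47 and 42 in Nfatc1KO against 21, 22, 15 and 17 in Control, beside the summed leukocyte markers given above, whose part in it was not tested. None of these 9 passed against the other knockout lines (adjusted p 0.117 to 0.986). Sh3bp2, an adaptor protein gene, had 509 to 721 in Nfatc1KO and 330 to 905 in the other knockouts, against 95 to 325 in Control.

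Among the falls, Hox genes, which encode homeodomain factors of positional identity, had 3 of 23 called and a median of -0.29. Hoxb9 had 46, 20, 154 and 44 in Nfatc1KO against 131, 423, 590 and 840 in Control (log2 fold change -3.00, standard error 0.49, adjusted p 0.0153). Hoxa10 had 22, 24, 44 and 36 against 42, 109, 266 and 186 in Control (-1.99, adjusted p 0.0161), and Hoxa9 had 3, 4, 6 and 3 against 19, 28, 69 and 37 in Control (-2.86, adjusted p 0.0136). In the whole list 15 of 23 were below 0. The lines differed widely in the 3 called genes. Hoxb9 was at 80 to 330 in Pitx1KO and at 3 to 18 in Klf5KO and Creb3l1KO, and none of the 3 passed between Nfatc1KO and the other knockouts (adjusted p 0.258 to 0.522).

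Several further falls were low in other knockout lines too. Krt6a, a keratin of activated keratinocytes, had 12, 10, 3 and 0 in Nfatc1KO against 1415, 157, 112 and 7 in Control, and 0 to 92 in the other knockouts (log2 fold change -4.61, adjusted p 0.0173). Ptprz1, a receptor tyrosine phosphatase, had 8, 4, 21 and 6 against 47, 125, 169 and 159 in Control, and at most 15 in the others (-3.63, adjusted p 0.0136). Gpr149 fell by 4.52, the zinc finger gene Zfhx4 by 3.59, the ETS factor Etv1 by 2.20 and Uggt2 by 1.63, and none of these 4 passed against the other knockouts (adjusted p 0.562 to 0.933).

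Counted within each fraction, 7 of the 186 called genes lay outside the range of all 16 other day 8 libraries. The share over all genes tested was not computed, so the count has no background to be read against. The 4 above it were Bmp7, Sbds, Tep1 and Rheb, and the 3 below it included Nfatc1 and Ank3. Sbds, Tep1 and Rheb are named for that count after their values were seen. Tep1 lies on chromosome 14, within the first 4 blocks of neighbouring genes described below.

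Of 22 tested genes in the NFAT and calcineurin list only Nfatc1 passed, and the median was 0.05. Nfatc2, a second calcium-regulated family member, had 1362, 955, 793 and 569 in Nfatc1KO against 1005, 677, 394 and 395 in Control (log2 fold change 0.62, adjusted p 0.148). Nfatc3 was at -0.14 (adjusted p 0.439) and Nfat5 at 0.25 (adjusted p 0.538), while Nfatc4 stayed at 4 to 39 in the 8 libraries. The calcineurin subunits Ppp3ca, Ppp3cb and Ppp3r1 were at 0.12, -0.24 and 0.03. Rcan1, a calcineurin inhibitor that NFAT induces as feedback, had 364, 328, 359 and 304 in Nfatc1KO against 228, 306, 257 and 280 in Control (0.34, adjusted p 0.279). Upstream, 1 of 20 calcium entry genes rose, Saraf, which slows store-operated calcium entry. Saraf had 2678, 1523, 2538 and 1920 in Nfatc1KO against 1326, 1384, 1420 and 1406 in Control (0.61, adjusted p 0.0461). Against the other knockouts none of the 20 passed.

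Of 28 reported NFAT targets in other cells, 19 could be tested and none passed in limma, with a median of 0.01 and 11 above 0. The count at an unadjusted p below 0.05 over all genes was 3019. Ptgs2, the inducible cyclooxygenase, had 3432, 1665, 3577 and 1729 in Nfatc1KO against 2663, 3879, 2574 and 4508 in Control, so the number 1 pairs were higher and the number 2 pairs lower (-0.44, adjusted p 0.516). Csf2, the cytokine GM-CSF, had 809 and 512 in number 1 and 80 and 55 in number 2 of Nfatc1KO, against 61 and 55 in number 1 and 111 and 74 in number 2 of Control (adjusted p 0.32). Myc, Cdk4 and Ccnd1, which drive the cell cycle, were within 0.02 of 0 (adjusted p 0.964 to 0.968). The osteoclast targets Acp5 and Calcr were at 0 to 3 in the 8 libraries. Ctsk, Mmp9, Itgb3 and Spp1 of the same list could be tested and did not pass (log2 fold changes -0.15, 1.10, 0.95 and 0.57). Of 19 tested hair follicle stem cell genes only Nfatc1 passed. Sox9 was at -0.11 (adjusted p 0.783), and Cd34 had 0, 0, 3 and 0 in Nfatc1KO against 24, 0, 189 and 5 in Control (adjusted p 0.204).

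**Figure D3:**
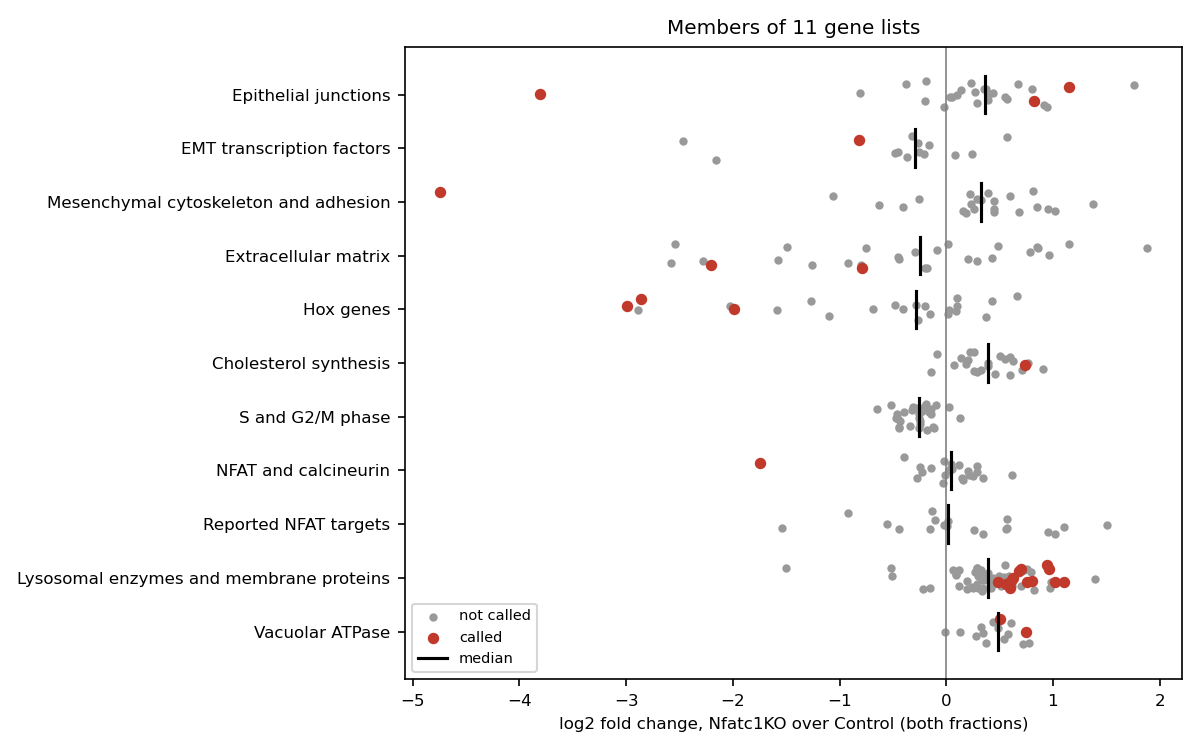
Fitted log2 fold changes of Nfatc1KO over Control (x axis) for the tested members of 11 gene lists (y axis; points are genes, red where called, black bars the list medians). Lysosomal genes lie mostly above 0 (58 of 63), but the lysosomal and vacuolar ATPase lists were written after the values were seen. Cell cycle genes lie mostly below 0 (28 of 30), with pair medians of -0.73 and -0.57 in number 1 and 0.13 and 0.04 in number 2. The NFAT lists centre near 0.

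Genes of the lysosome, where acid hydrolases break down proteins, lipids and glycans, were 13 of the 120 rises. The lists of lysosomal and vacuolar ATPase genes were written after the values were seen, so their counts describe and support nothing. Of 63 tested lysosomal enzymes and membrane proteins 13 rose and none fell, 58 were above 0 and the median was 0.39. Fuca2, a fucosidase, had 948, 724, 597 and 640 in Nfatc1KO against 316, 431, 285 and 312 in Control (log2 fold change 1.11, standard error 0.20, adjusted p 0.0173). Man2b2, a mannosidase, rose by 1.02 (adjusted p 0.0136), the calcium channel Mcoln1 by 0.61 (0.0309) and the membrane protein Lamp2 by 0.68 (0.017). Of 16 subunits and partners of the proton-pumping vacuolar ATPase 2 rose, Atp6v1a and Atp6ap2, with a median of 0.48. For these 16, Pitx1KO, Klf5KO and Creb3l1KO had medians of 0.26, 0.395 and 0.07 against the same control libraries. None of the 16 passed between Nfatc1KO and the other knockouts (median 0.16). By pair the lysosomal median was 0.77 and 0.30 in EPCAM+ numbers 1 and 2 and 0.42 and 0.36 in EPCAM- numbers 1 and 2. Pitx1KO, Klf5KO and Creb3l1KO, set against the same control libraries, had medians of 0.22, 0.37 and 0.08. Without the control libraries, 4 of 63 rose against the other knockouts, with a median of 0.23 and 55 above 0, among them Fuca2 and Ctsa (adjusted p 0.0215 and 0.0241). None of the lysosomal calls against Control passed with the random effect.

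Metabolic and stress lists had fewer calls. Of 24 cholesterol synthesis genes Sc5d alone rose (0.73, adjusted p 0.0355). In this list 22 were above 0 and the median was 0.39, with all 4 pairs between 0.22 and 0.55. Insig1, which restrains cholesterol synthesis, was at 0.91 and did not pass (adjusted p 0.0596). Pitx1KO, Klf5KO and Creb3l1KO, set against the same control libraries, had list medians of 0.12, 0.35 and 0.15. Nfatc1KO against the other knockouts had a list median of 0.24. Of 22 unfolded protein response genes 2 rose. Ddit3, the stress transcription factor CHOP, had 630, 357, 712 and 389 in Nfatc1KO against 280, 266, 394 and 287 in Control (0.72, adjusted p 0.0248), and Trib3, which CHOP induces, rose by 0.79 (adjusted p 0.0368). Pfkfb3, which raises glycolytic flux, was the 1 called gene of 24 in hypoxia and glycolysis (0.73, adjusted p 0.0462). Against the other knockouts no gene of the cholesterol, unfolded protein response or hypoxia and glycolysis lists passed. Of 30 genes of S and G2/M phase none passed in limma, although 28 were below 0 and the median was -0.25. The pair medians differed by number, at -0.73 in EPCAM+ and -0.57 in EPCAM- cells of number 1, and 0.13 and 0.04 in those of number 2. The AP-1 list had pair medians of 1.00 and 0.53 in number 1 and 0.03 and 0.09 in number 2, and none of its 14 genes passed.

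Against the other knockout lines 207 of 19569 genes passed (1.06%), 145 higher (0.741%) and 62 lower (0.317%) in Nfatc1KO, and 61 of them passed with the random effect. The count was 75, 70 and 52 without Nfatc1KO EPCAM+ number 1, EPCAM- number 1 and EPCAM- number 2, and 135 and 125 without Klf5KO EPCAM+ and EPCAM- number 2. The 3 lines differed among themselves, so a call does not mean that Nfatc1KO differed from each of them. Among these called genes, 23 rises and 11 falls were separated from all 12 libraries within both fractions, and the share over all genes was not computed. Krt17, a keratin of hair follicle and activated epidermis, had 7976, 3964, 3490 and 3220 in Nfatc1KO, beside 4365, 3481, 2175 and 3846 in Control. The Klf5KO libraries had 2896 to 6100 and those of Pitx1KO and Creb3l1KO 8 to 210 (log2 fold change 4.23, adjusted p 0.000615). Gpa33, an epithelial surface glycoprotein, had 498, 149, 16 and 9 in Nfatc1KO against 0 to 42 in the other knockouts (2.78, adjusted p 0.0189). Klf12, a Krüppel-like repressor, had 36, 17, 41 and 28 in Nfatc1KO against 65 to 230 in the other knockouts (-2.05, adjusted p 0.00369, and 0.0137 with the random effect), and 40, 120, 112 and 106 in Control. Ank3, the membrane scaffold ankyrin-G, had 594, 499, 750 and 679 in Nfatc1KO against 704 to 1213 in the others (-0.59, adjusted p 0.0144) and 773, 937, 1465 and 1314 in Control (-0.80, adjusted p 0.0153). Abcc4, a multidrug exporter, was also lower than in the other lines (-0.69, adjusted p 0.00149 and 0.0101 with the random effect), whereas against Control it did not pass (-0.24, adjusted p 0.36). Klf12 and Abcc4 both lie on chromosome 14, and 22 of the 62 falls lie on chromosome 19, where 574 genes were tested. Both chromosomes are described below. Krt17 is named from a list and was picked here after its values were seen.

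Within single fractions only Nfatc1 passed, with the limits given above, 1 gene of 19569 in EPCAM+ cells (0.00511%) and 1 in EPCAM- cells (0.00511%). The next smallest adjusted p was 0.0593 in EPCAM+ and 0.0978 in EPCAM- cells, each with 2 libraries a side. The knockout difference was also tested between the fractions. None of 19569 genes passed (0%), with 520 at an unadjusted p below 0.05 in limma and 0 called by voom. For Nfatc1 the difference between fractions was -0.00107 with a standard error of 0.26. The median standard error of such a difference was 0.47, so that differences of this size were not detectable with 2 libraries a group.

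Called genes were unevenly spread over the chromosomes. Of 545 tested genes on chromosome X 14 rose and 13 fell (4.95%), and of 578 on chromosome 14 8 rose and 7 fell (2.6%), against 0.786% of the 18325 genes on the other chromosomes, among which chromosome 12 had the highest share (2.26%). On chromosomes X and 14 rises and falls lay in separate stretches. Genes with a mean value of at least 50 were put in 314 blocks of up to 40 neighbours. The 5 blocks of chromosome X with a median beyond 0.2 either way were 3 at its start, with medians of 0.38, 0.31 and 0.26, and 2 at its end, with -0.49 and -0.38. All but 1 of the 27 called genes of chromosome X lay in these blocks or in the block before the last 2, among them the rises Lamp2, Atp6ap2 and Dynlt3 and the falls Smc1a and Pdha1, chosen after their values were seen. The Control number 2 libraries deviated most: in the last block their deviation from the median of the day 8 libraries was 0.67 in EPCAM+ and 0.81 in EPCAM- cells, against -0.07 to 0.10 in the 4 Nfatc1KO libraries. Control number 1 had 0.01 and 0.13 there, and 0.10 and 0.22 in the block before it. In the last block the 12 other knockout libraries lay between -0.21 and 0.06. In the first and last blocks the number 1 pairs had the sign of the number 2 pairs at a smaller size, at -0.26 and -0.33 in the last block against -0.51 and -0.83, and at 0.17 and 0.19 in the first block against 0.43 and 0.70. On chromosome 12 the Control number 2 libraries deviated too, by -0.37 and -0.39 in block 2 and by -0.25 and -0.25 in block 8, which hold 3 rises each. Against the other knockouts the block medians of chromosome X were -0.05 to 0.11. The part of this stretch in the lysosomal rises Lamp2 and Atp6ap2 was not tested.

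On chromosome 14 the stretches also appeared without a control library. The first 4 blocks had medians of 0.19 to 0.26 and the last 5 had -0.30 to -0.18, with the same sign in all 4 pairs but sizes from -0.54 to -0.01 in the last 5. Against the other knockout lines the same blocks had 0.16 to 0.20 and -0.20 to -0.11. The Klf5KO libraries lay on the same side as Nfatc1KO in the first 4 blocks, at 0.03 to 0.29. Larger medians against the other knockouts lay elsewhere, at -0.32 to -0.22 in the first 7 blocks of chromosome 19 and at 0.25 and 0.26 in blocks 21 and 22 of chromosome 2. Against Control the same blocks had -0.11 to 0.03 on chromosome 19, and 0.13 and 0.12 on chromosome 2. In those blocks of chromosome 19 the Pitx1KO libraries deviated by 0.01 to 0.47 and the Nfatc1KO libraries by -0.47 to 0.02. On chromosome 14, the rises Anxa7, Samd8, Ghitm and Gch1 lay in the first 4 blocks, and the falls Elp3, Uchl3, Ipo5, Dock9 and Uggt2 in the last 3. Ghitm, a mitochondrial membrane protein gene, had 5152, 3551, 3965 and 3291 in Nfatc1KO against 2133, 2997, 2163 and 2653 in Control. Ipo5, a nuclear import receptor, had 5877, 8334, 7176 and 7924 in Nfatc1KO against 10921, 10920, 10014 and 11650 in Control. Except for Gch1 and Uggt2, these were named after their values were seen. On chromosome 13 blocks 2 and 3 had medians of -0.44 and -0.41, but with opposite signs by number: -1.46 to -0.985 in the number 1 pairs and 0.10 to 0.46 in the number 2 pairs. Blocks with the same sign in all 4 pairs also lay on other chromosomes. Among them were block 8 of chromosome 13 (-0.33) and block 2 of chromosome 5 (0.29). Against the other knockouts these 2 blocks had -0.105 and 0.12.

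**Figure D4:**
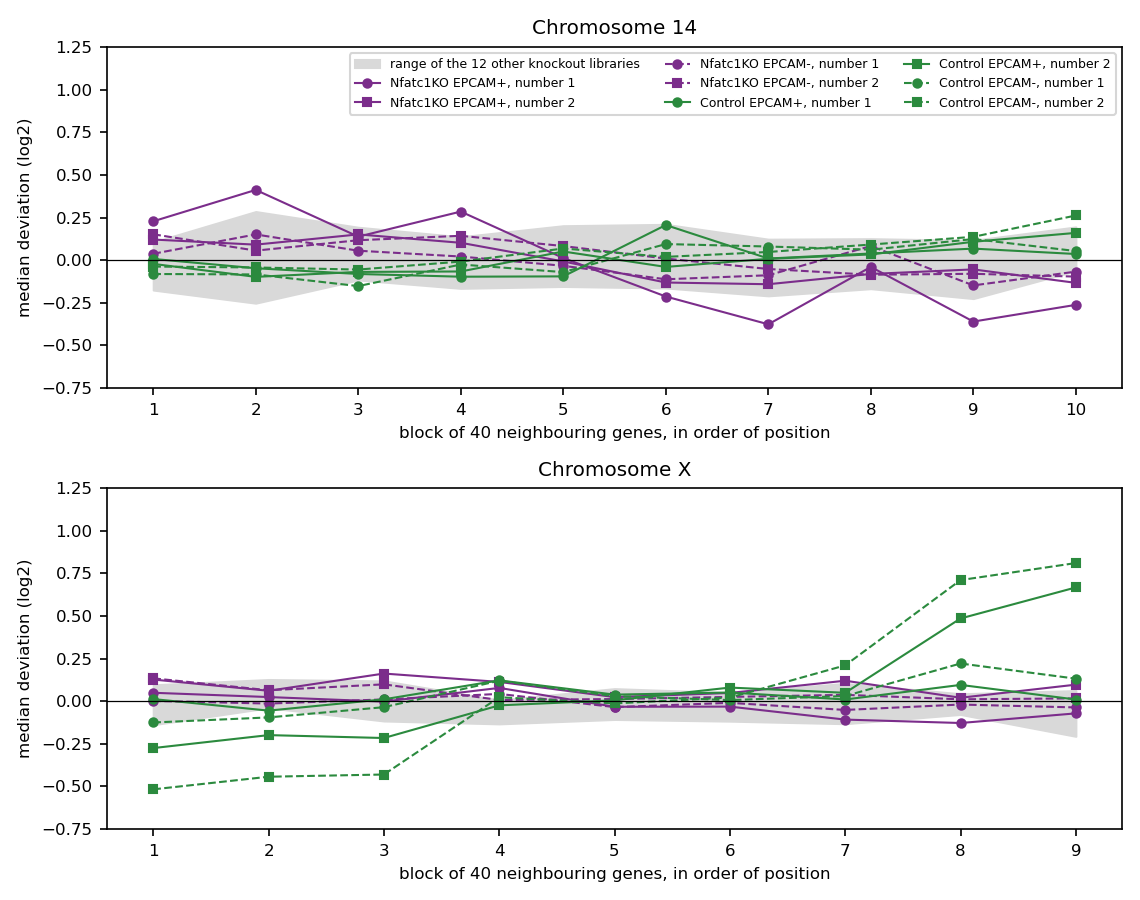
Median deviation (y axis, log2) of each library from the median of the 10 day 8 libraries of its fraction, over blocks of up to 40 neighbouring genes in order of position (x axis), on chromosomes 14 and X; purple lines are Nfatc1KO, green lines Control, and the grey band is the range of the 12 other knockout libraries. On chromosome X the Control number 2 libraries leave the rest at both ends, to 0.81 in the last block, and on chromosome 14 the Nfatc1KO libraries lie above 0 in the first 4 blocks and mostly below 0 in the last 5.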

How the data were processed

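Total RNA of sorted cells was sequenced in 22 libraries of 11 groups with 2 libraries each. The deposited table holds normalised read counts made by the authors, entered here as a score because the values are rounded and scaled to a common total (20007331 to 20014236). Per the submitters' processing notes FastQC, Trimmomatic, STAR, Picard and HTSeq were used with GRCm38 (mm10), and their versions and the scaling are not given in the sources used here. Stepping of low values gave 6054933 to 9882698 reads in genes a library. Of the gene IDs 99.31% matched GENCODE M21, which supplied positions.

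Values were analysed as log2(value + 1) with limma 3.58.1 (trend, robust; R 4.3.3), with 1 mean per group over all 22 libraries and the number as a block, since the labels tag it as a batch. The fractions of a number deviated together within each line (correlation 0.538 to 0.778), but between Nfatc1KO and Control only from -0.0497 to 0.117. Genes reaching 10 in 2 libraries were kept, and an adjusted p (Benjamini-Hochberg over all 19569 genes) below 0.05 counts as called. The calling step was tested on simulated data. The simulated libraries were drawn independently, with no effect of the number and no correlation between the fractions of a line. They therefore cannot show how the calls behave under the correlation seen here. Alternatives were other pseudocounts, filters, scalings and blocks, voom on recovered reads, and libraries left out. Named genes were up to 12 called rises and 12 falls by size, whose higher group averaged 50 or more and whose groups did not overlap within a fraction, and up to 4 called genes per list. The comparison, its members and all gene lists were chosen with earlier results of these data known. Sequences come from RefSeq (GRCm38.p6). 1 further allele of the shared genotype and some genes are not reported here.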

Additional observations from a re-analysis of the deposited data

How the results depend on the processing

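Between Nfatc1KO and Control, 9 genes were called with no replicate block, 6 in a fit of the compared groups alone, 4 with line and number as a random effect and 1 with the fractions averaged. Leaving out 1 library at a time gave 6 to 352. Without both Control libraries of number 2, an alternative chosen after seeing the data, 1513 were called. Other pseudocounts, filters and scalings gave 158 to 213. In EPCAM+ cells the count was 0 with no replicate block, 0 with the compared groups only, 3 with a pseudocount of 5, 2 with no filter, 2 with voom, 364 without Control number 2 and 2 to 23 with 1 library left out. In EPCAM- cells these counts were 0, 0, 5, 8, 2, 111 and 0 to 40. Within a fraction, leaving a library out leaves 1 on that side, which is assumed to vary like the other groups, so these counts say little. Against the other knockouts 62 were called with no replicate block, 403 with the compared groups only, 61 with the random effect, 3 with the fractions averaged and 52 to 233 with 1 library left out. Nfatc1 was called between the lines in every one of these settings over both fractions. The Epcam difference, never called, changed sign in 2 of its leave-one-out fits (-0.01 and -0.0373), with a range of -0.0373 to 0.50. The causes were not tested. A planned edgeR alternative was not run, because the deposited values are not counts. With 2 libraries a group, differences between fractions had a median standard error of 0.471.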
